A study of Mus musculus with 12 samples.

Results

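Usp26 encodes a ubiquitin-specific protease, an enzyme that takes ubiquitin off other proteins, and lies on the X chromosome of the mouse. The array annotation assigns 1 probe set to it, probe set 10604551, of 28939 probe sets tested, so Usp26 is 1 of 19939 genes with a value. It was singled out because it was lower in each line able to form mice by tetraploid complementation than in each line that was not. The differences of Usp26 between lines are therefore given as a description, with no test.

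Expression was measured with Affymetrix arrays in 4 mouse lines of iPS cells (induced pluripotent stem cells, made by reprogramming body cells to pluripotency), with 3 cultures of each line and 1 array for each culture. All lines came from embryonic fibroblasts of strain C57BL/6J and were made with 3 factors, which the labels do not name, and all were grown in embryonic stem cell medium. The lines LiPS-45 and LiPS-57 were competent for tetraploid complementation, meaning that they can build a whole fetus when placed in a tetraploid host embryo; LiPS-47 and LiPS-50 lacked this competence. Competence belongs to a line, so each class holds 2 lines, and the number of lines, not of arrays, limits any comparison of the classes. Values are log2(intensity + 1) unless a fold or an intensity is named, and spreads are standard deviations (SD) over the 3 cultures of a line. The cultures are labelled biological repeats; nothing says how far apart they were grown, so their spread may be partly technical. Each array measures a mixture, so a smaller share of expressing cells and less RNA in each cell cannot be told apart.

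Ubiquitin-specific proteases (USPs) are the largest family of deubiquitinating enzymes, and they stabilise or reroute the proteins whose ubiquitin they remove. Usp26 is best known as a testis gene, first isolated among X-linked genes of mouse spermatogonia, and its closest relatives are Usp37, a protease of the cell cycle, and Usp29, an imprinted gene next to Peg3. In cultured cells the protein has been reported to stabilise chromobox subunits of Polycomb repressive complex 1 (PRC1), a silencing complex that adds ubiquitin to histone H2A, and to hold back reprogramming to pluripotency. In human cells Smad7, an inhibitor of TGF-beta signalling, and Mdm2, the ubiquitin ligase of p53, have been reported as its substrates.

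The start regions of Usp26, of its 2 closest relatives and of Pnma5 are shown because these genes differ in how they behaved in LiPS-50, the line in which Usp26 was highest. Each is the window of 300 bases, 250 before the start of the gene and 50 after it, from RefSeq on GRCm38.p6. Letters run 5′ to 3′ on the strand of the gene, with each CpG dinucleotide, the site of DNA methylation, in capitals. The windows are chrX:51801184-51801483 (minus strand) for Usp26, chr7:6730333-6730632 (plus strand) for Usp29, chr1:74505772-74506071 (minus strand) for Usp37 and chrX:73037054-73037353 (minus strand) for Pnma5.
Usp26: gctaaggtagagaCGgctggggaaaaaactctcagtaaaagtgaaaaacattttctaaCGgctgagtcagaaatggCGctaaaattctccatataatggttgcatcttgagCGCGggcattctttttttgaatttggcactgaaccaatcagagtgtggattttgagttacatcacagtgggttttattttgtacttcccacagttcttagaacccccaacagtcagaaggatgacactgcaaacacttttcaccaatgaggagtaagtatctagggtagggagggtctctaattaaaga
Usp29: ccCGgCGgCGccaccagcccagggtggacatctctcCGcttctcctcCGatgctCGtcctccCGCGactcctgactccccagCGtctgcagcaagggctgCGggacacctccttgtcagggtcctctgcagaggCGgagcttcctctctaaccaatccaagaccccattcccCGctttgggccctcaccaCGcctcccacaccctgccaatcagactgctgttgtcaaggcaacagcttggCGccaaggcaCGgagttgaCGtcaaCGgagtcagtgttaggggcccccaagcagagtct
Usp37: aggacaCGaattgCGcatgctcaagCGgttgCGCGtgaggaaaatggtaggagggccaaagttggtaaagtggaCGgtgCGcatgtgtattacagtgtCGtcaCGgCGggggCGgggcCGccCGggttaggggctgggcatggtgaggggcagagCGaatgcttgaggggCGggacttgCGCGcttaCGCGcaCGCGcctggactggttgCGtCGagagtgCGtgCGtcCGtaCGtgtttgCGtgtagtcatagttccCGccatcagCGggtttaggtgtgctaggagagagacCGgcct
Pnma5: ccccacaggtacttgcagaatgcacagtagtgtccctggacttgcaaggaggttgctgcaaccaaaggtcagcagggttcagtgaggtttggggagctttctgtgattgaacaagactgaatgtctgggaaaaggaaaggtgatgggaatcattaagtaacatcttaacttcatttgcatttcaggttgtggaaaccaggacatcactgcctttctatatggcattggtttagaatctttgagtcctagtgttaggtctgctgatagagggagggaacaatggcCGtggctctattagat

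The Usp26 window holds 5 CpGs and is 41.3% G or C. Of 1223 windows on the X chromosome, 45% hold no more CpGs than that and 14.6% are no richer in G and C, with medians of 7 CpGs and 51.0%. The windows of Usp29 and Usp37 hold 17 and 31 CpGs, and that of Pnma5 holds 1. The letters CCAAT, searched on both strands, occur at 2 places in the Usp26 window, starting at its bases 145 and 254. They occur in 45% of X-linked windows and 37.4% of all 32851 windows, so their presence is common. The letters TATAAA, searched in the same manner, are not in this window and occur in 13.6% of all windows.

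Usp26 gave intensities of 26.3, 27.0 and 28.8 for LiPS-45, 55.2, 54.3 and 54.8 for LiPS-57, 78.6, 70.3 and 71.5 for LiPS-47, and 218.0, 192.1 and 206.1 for LiPS-50. On the log2 scale these are 4.77, 4.81 and 4.90 for LiPS-45, 5.81, 5.79 and 5.80 for LiPS-57, 6.31, 6.16 and 6.18 for LiPS-47, and 7.77, 7.59 and 7.69 in LiPS-50. The 4 lines thus formed 4 levels with no overlap between any of them, both competent lines lying at the low end. The line means were 4.82 ± 0.0660 for LiPS-45, 5.80 ± 0.0125 for LiPS-57, 6.22 ± 0.0857 for LiPS-47 and 7.69 ± 0.0910 for LiPS-50 (SD, n = 3 each). Each step between neighbouring levels was larger than the spread between cultures.

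**Figure D1:**
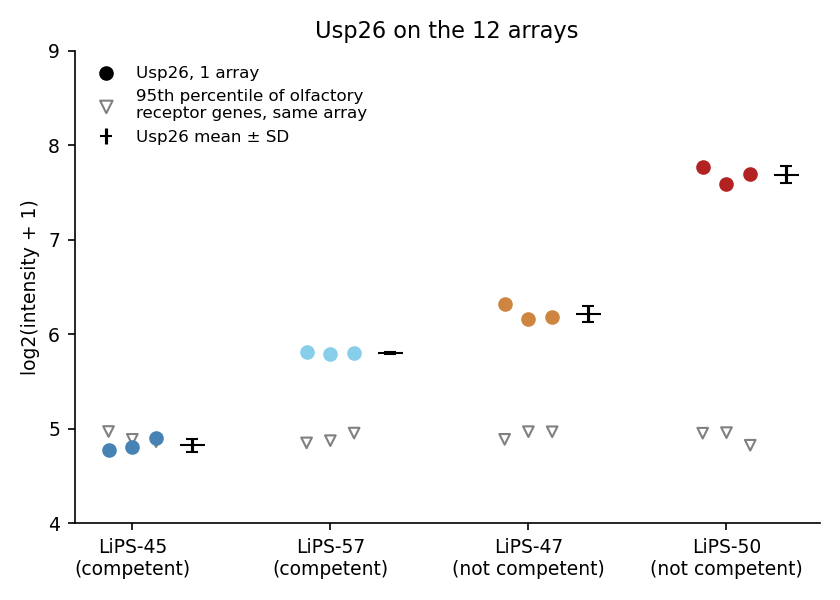
Usp26 on each of the 12 arrays, as log2(intensity + 1) on the vertical axis, with the lines on the horizontal axis. Filled points are single arrays, black bars the line mean ± SD, and open triangles the 95th percentile of 1026 olfactory receptor genes on the same array; the 3 LiPS-45 arrays lie close to that percentile, and the arrays of the other lines lie above it.

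The levels were unevenly spaced. LiPS-45 lay below LiPS-57 by a log2 difference of -0.98, with a gap of 0.89 between their nearest arrays, although both lines are competent. LiPS-57 lay below LiPS-47 by -0.42 across the boundary of competence, with a gap of 0.34, which is the narrowest of the 3 steps. LiPS-47 lay below LiPS-50 by -1.47, with a gap of 1.28, although neither line is competent. Over the whole range LiPS-45 was 7.28-fold below LiPS-50, a log2 difference of -2.86. The mean difference between competent and other lines was -1.64. Both differences within a class therefore exceeded the smallest difference between classes.

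A scale for the lowest level comes from olfactory receptor genes, which serve in the nose and are used here as genes with little transcript in these cells. This yardstick was chosen after the values were seen. Usp26 lay above 92.7% to 95.4% of 1026 olfactory receptor genes on the LiPS-45 arrays, 99.3% on each LiPS-57 array, 99.5% to 99.6% on the LiPS-47 arrays and all of them on each LiPS-50 array. Set against all 19939 genes, it stood above 27.0% to 30.7% in LiPS-45, 44.5% to 45.2% in LiPS-57, 49.4% to 51.8% in LiPS-47 and 70.5% to 72.3% in LiPS-50. The signal of Usp26 in LiPS-45 was hence within the upper range of this yardstick. A fold measured against LiPS-45 may be compressed by background, which was not tested.

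Usp26 had the second widest range of any gene over the 4 lines. Its line means spanned 2.86, against a median span of 0.19 and a 95th percentile of 0.57 over all 19939 genes, and 1 gene, X-linked Pnma5, spanned more, at 3.40. Among 1363 other genes whose mean brightness lay within 0.25 of the Usp26 mean of 6.13, the median span was 0.22, the 95th percentile 0.66 and the widest 2.48. None of those genes spanned as much as Usp26. Its spread between cultures was small at this brightness: the within-line SD, pooled over lines, was 0.0710, against a median of 0.123, and 5.50% of the genes of similar brightness had a smaller one. The 10 genes nearest to Usp26 in mean brightness spanned between 0.061 (Tmem230) and 0.98 (Nckap1l).

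**Figure D2:**
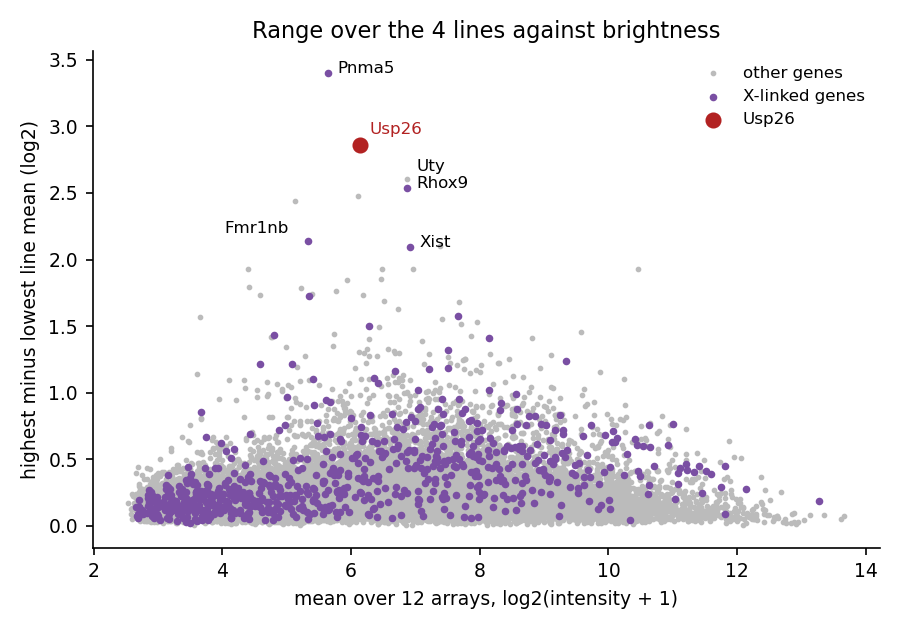
Range over the 4 lines against brightness. Each point is a gene, with its mean log2(intensity + 1) over the 12 arrays on the horizontal axis and its highest minus its lowest line mean (log2) on the vertical axis. X-linked genes are purple; Usp26, in red at 6.13 and 2.86, lies below Pnma5 and above every other gene.

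The genes of similar brightness with the next widest spans differed from Usp26 in the order of the lines or in their separation. The uncharacterised gene 2210409E12Rik stood at 7.91 ± 0.194 in LiPS-50, against 5.57 ± 0.202 for LiPS-45, 5.43 ± 0.142 for LiPS-57 and 5.53 ± 0.0900 for LiPS-47 (SD, n = 3 each). Mir380, a microRNA gene of the Dlk1-Dio3 imprinted domain, was lowest in LiPS-57, at 4.96, and highest in LiPS-45, at 6.80. Apobec2, a cytidine deaminase family gene, averaged 7.37 in LiPS-50, against 5.64 for LiPS-45, 5.84 for LiPS-57 and 5.87 for LiPS-47. The Apobec2 line means ran in the order of Usp26, but its LiPS-57 and LiPS-47 arrays overlapped. None of these 3 had 4 separate levels in the order of Usp26.

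The order of the lines at Usp26 was shared by many genes, but their separation was not. The line means of 1259 genes (6.31%) ran upward from LiPS-45 through LiPS-57 and LiPS-47 to LiPS-50. Usp26 was the 1 gene of 19939 (0.00502%) in which no arrays of neighbouring lines overlapped in that order, and 4 genes (0.0201%) had separate levels in the opposite order. In any order, 62 genes (0.311%) had 4 levels without overlap. All 6 competent arrays lay below all 6 others in 76 genes (0.381%) and above them in 101 (0.507%). Of the 76, 7 are X-linked, Usp26 included, beside 738 other X-linked genes among all 19939. Among the 76 genes the gap between the classes was widest at Usp26, 0.34 against 0.22 at the next. These counts describe the pattern for which Usp26 was chosen and support nothing beyond it.

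LiPS-50 differed from the other lines in its X chromosome as a whole, and Usp26 has to be read beside that. The median of the other 738 X-linked genes lay below the autosomal median of the same array by -0.45 to -0.40 in LiPS-50, against -0.64 to -0.61 for LiPS-45, -0.64 to -0.54 for LiPS-57 and -0.65 to -0.60 for LiPS-47. The LiPS-50 arrays did not overlap with the others. For LiPS-50 minus the mean of the other 3 lines, limma with Benjamini-Hochberg adjustment called 299 of the 738 higher and 20 lower at an adjusted p of 0.05, whereas 10.5% and 10.6% of all probe sets were called. Xist, the RNA that coats an inactive X chromosome, was measured at 8.56, 8.14 and 8.25 in LiPS-50, against 6.58, 6.82 and 6.53 for LiPS-45, 6.50, 6.58 and 6.30 for LiPS-57 and 6.42, 6.34 and 5.91 for LiPS-47. It was 3.66-fold higher in LiPS-50 (SE of the log2 difference 0.118, limma adjusted p = 5.02e-07). Uty, a Y-linked gene of the histone demethylase family, was 4.48-fold lower there (adjusted p = 1.02e-07), at 5.25 ± 0.302 in LiPS-50, against 7.86 ± 0.167 for LiPS-45, 6.62 ± 0.0343 for LiPS-57 and 7.76 ± 0.152 for LiPS-47 (SD, n = 3 each). Eif2s3y, a Y-linked translation factor gene, did not follow it: it stood at 6.34 ± 0.149 in LiPS-50, against 7.46 ± 0.202 for LiPS-45, 5.77 ± 0.227 for LiPS-57 and 6.46 ± 0.0925 for LiPS-47 (SD, n = 3 each; adjusted p = 0.151 from limma). Of 11 measured genes of the sex chromosome list, which holds Xist, Uty and Eif2s3y, limma called 5 higher and 2 lower in LiPS-50. Uty was thus not the only gene of this list called lower there. Uty and Eif2s3y also varied among the 3 lines other than LiPS-50. For LiPS-45 minus LiPS-57 limma called Eif2s3y (log2 difference 1.69, adjusted p = 4.37e-05) and Uty (1.23, adjusted p = 9.63e-04). It called Eif2s3y for LiPS-45 minus LiPS-47 (1.00, adjusted p = 0.0112) and Uty for LiPS-57 minus LiPS-47 (-1.14, adjusted p = 0.00372). Kdm5d, Zfy1 and Zfy2, dimmer Y-linked genes, were not called in these pairs. Whether sex chromosome content has a part in the Usp26 level was not tested.

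The Usp26 differences are set here beside those of the other X-linked genes. Whether the X-linked shift has a part in any of them was not tested, and Uty and Eif2s3y varied among the 3 lines other than LiPS-50. For LiPS-50 minus the mean of the other lines the Usp26 difference was 2.07, against a median of 0.14 and a 95th percentile of 0.75 over the other X-linked genes, 3 of which exceeded it. In LiPS-45 minus LiPS-47 Usp26 differed by -1.39, whereas the X-linked median was 0.0063 and the lowest other X-linked value -0.62. In LiPS-45 minus LiPS-57 it differed by -0.98, against a median of 0.010 and a lowest value of -0.78. In LiPS-57 minus LiPS-47 the X-linked median was -0.0078, and 1 X-linked gene, at -0.44, lay below the -0.42 of Usp26. Taken relative to the median of the other X-linked genes, LiPS-47 lay below LiPS-50 by -1.24 at Usp26, LiPS-57 by -1.68 and LiPS-45 by -2.63. Among all 19939 genes the downward difference of Usp26 was the largest in LiPS-45 minus LiPS-47 and in LiPS-45 minus LiPS-57, and the 64th largest in LiPS-57 minus LiPS-47.

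**Figure D3:**
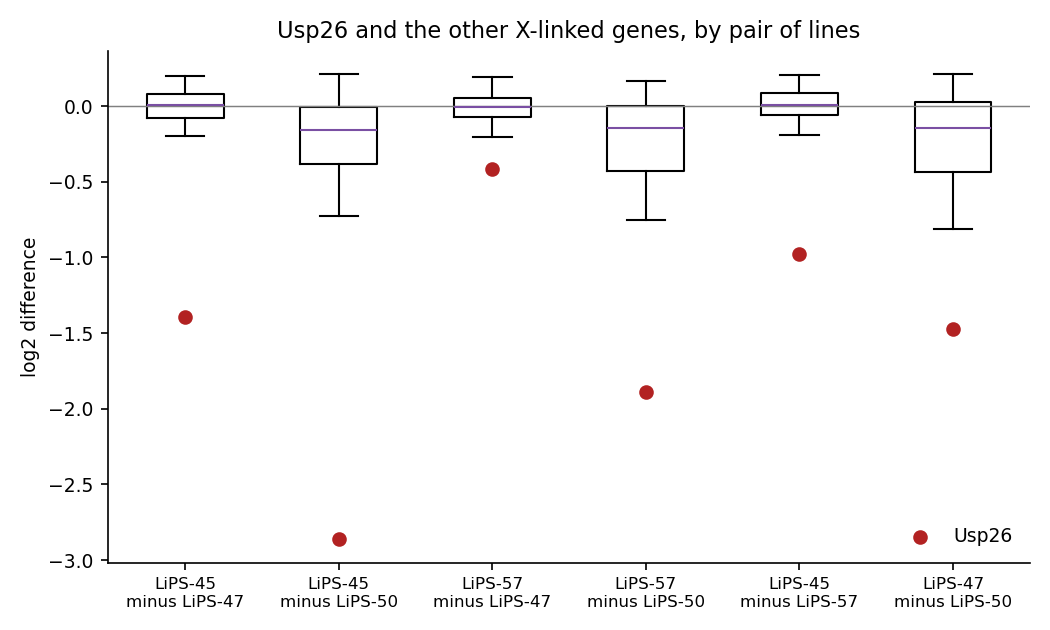
Log2 differences in the 6 pairs of lines, for Usp26 (red points) and the other 738 X-linked genes (boxes span the quartiles with the median inside, whiskers the 5th to 95th percentile). The X-linked medians lie between -0.0078 and 0.010 in the 3 pairs without LiPS-50 and between -0.16 and -0.14 in the 3 with it; Usp26 lies below the whiskers in all 6.

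The 3 X-linked genes of widest span beside Usp26 were highest in LiPS-50, as Usp26 was, and are set beside its steps among the other lines. These genes were picked by their span and get no test. Pnma5, a gene derived from a retroelement Gag gene, stood at 8.09, 8.21 and 8.19 in LiPS-50, against 4.76, 4.86 and 5.01 for LiPS-45, 4.57, 4.68 and 5.05 for LiPS-57 and 4.61, 4.88 and 4.81 for LiPS-47. Fmr1nb, named as a neighbour of Fmr1 and known as a testis gene, stood at 6.98, 6.86 and 6.86 in LiPS-50, against 4.67 to 4.82 for LiPS-45, 4.70 to 4.90 for LiPS-57 and 4.71 to 4.92 for LiPS-47. In both genes the 3 other lines lay at overlapping levels. Rhox9, a reproductive homeobox gene, averaged 8.50 in LiPS-50, against 5.96 for LiPS-45, 6.74 for LiPS-57 and 6.27 for LiPS-47, an order that places competent LiPS-57 above LiPS-47. The CpG content of the start region differed among these genes: the windows of Pnma5 and Fmr1nb hold 1 and 9 CpGs. Across the X chromosome, 181 other genes with no more CpGs than Usp26 had a median LiPS-50 difference of 0.016, and 413 with more had one of 0.30. This split was made after the data were seen, and the genes with more CpGs were also brighter in the median, so CpG content and level cannot be told apart in it.

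The neighbours of Usp26 on the chromosome differed less between lines. Of the 5 nearest measured genes on each side, limma called 4 higher and 1 lower in LiPS-50 against the other lines, with a median difference of 0.12, and 0 of 10 were called in LiPS-45 or LiPS-57 against LiPS-47 or against each other, where 1, 1 and 0 of them had an unadjusted p under 0.05. Of all probe sets, limma called 0.0622%, 0.159% and 0.266% for LiPS-45 minus LiPS-47, LiPS-57 minus LiPS-47 and LiPS-45 minus LiPS-57, and 21.2% for LiPS-50 against the rest. The 4 higher of 10 neighbours are close to the 299 of 738 among all other X-linked genes. Mbnl3, a muscleblind-family RNA-binding protein gene, came nearest to Usp26, at 7.28, 7.33 and 7.28 in LiPS-50, against 6.59, 6.54 and 6.57 for LiPS-45, 6.70, 6.66 and 6.58 for LiPS-57 and 6.85, 6.68 and 6.61 for LiPS-47. It was 1.57-fold higher in LiPS-50 (adjusted p = 6.06e-06 from limma), and the LiPS-57 arrays overlapped with those of both LiPS-45 and LiPS-47. Gpc3 and Gpc4, which encode heparan sulfate proteoglycans of the cell surface, were each 1.21-fold higher in LiPS-50 (adjusted p = 0.00151 and 0.00627), and Rap2c, a Ras-related GTPase gene, 1.28-fold (adjusted p = 0.00744, but 0.0535 without LiPS-50 replicate 3). Stk26, a protein kinase gene, was 1.21-fold lower (adjusted p = 0.0192, but 0.113 without LiPS-50 replicate 1 and 0.0557 without replicate 2). Hs6st2, a heparan sulfate sulfotransferase gene and the next measured gene on 1 side, averaged 7.60 ± 0.216 in LiPS-50, against 7.40 ± 0.128, 7.44 ± 0.0561 and 7.35 ± 0.0820 for LiPS-45, LiPS-57 and LiPS-47 (SD, n = 3 each; adjusted p = 0.122 from limma, but 0.00999 without LiPS-50 replicate 2). The next on the other side, 1700080O16Rik, lay between 3.63 and 3.81 in its line means.

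The genes most like Usp26 were sought by Pearson's r over the 12 arrays among 1392 genes whose line means span at least 0.5. The 12 arrays form 4 lines, so r mainly reflects 4 levels and is a description. The 10 highest had r between 0.933 and 0.980, with spans of 0.54 to 0.91. Of the 10, 0 are X-linked. With 738 other X-linked genes among all 19939, this count says nothing particular. Cdyl2, which encodes a chromodomain protein, came first (r = 0.980), with 7.60, 7.66 and 7.74 for LiPS-45, 7.97, 7.83 and 7.97 for LiPS-57, 8.04, 7.92 and 8.02 for LiPS-47 and 8.55, 8.51 and 8.64 in LiPS-50. Its arrays overlapped between LiPS-57 and LiPS-47, where those of Usp26 did not. Niban1 (r = 0.960), Mllt10 (0.944), Parp12 (0.939), Klhl42 (0.939), Elf3 (0.938) and Cbr3 (0.935) followed, then Slc40a1, Pla1a and Wnt2. In Niban1, Mllt10, Elf3 and Wnt2 the mean of competent LiPS-57 lay above that of LiPS-47. Without the LiPS-50 arrays r over the other 9 was 0.940 for Cdyl2 and 0.735 to 0.855 for the other 9 genes, and over deviations from the line means it fell to between 0.054 and 0.586 in the 10.

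The genes with the most opposite course were Cnpy1 (r = -0.978), Prex2 (-0.974), Mbtd1 (-0.960), Rapgef5 (-0.948) and Crybg3 (-0.945). Cnpy1, a gene of the FGF signalling regulator family Canopy, stood at 7.09, 7.12 and 7.24 for LiPS-45, 6.84, 6.77 and 6.73 for LiPS-57, 6.80, 6.75 and 6.74 for LiPS-47 and 6.04, 6.12 and 6.05 in LiPS-50. Here too LiPS-57 and LiPS-47 overlapped.

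**Figure D4:**
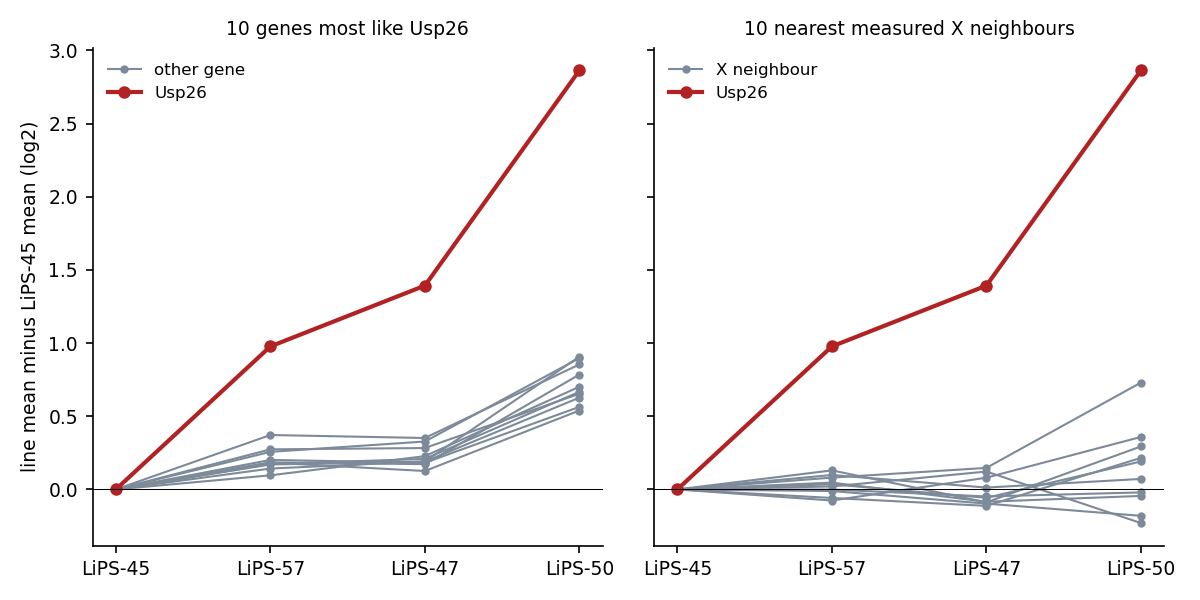
Line means minus the LiPS-45 mean (log2, vertical axis) in the 4 lines (horizontal axis), for Usp26 in red and in grey the 10 genes most like it (left) and its 10 nearest measured X-linked neighbours (right). Usp26 climbs by 0.98, 1.39 and 2.86, whereas the 10 genes most like it end at most 0.91 above LiPS-45.

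The closest relatives of Usp26 varied over narrower ranges, with spans of line means of 0.16 for Usp29 and 0.33 for Usp37. Usp29 was measured at 4.57, 4.67 and 4.51 for LiPS-45, 4.50, 4.50 and 4.57 for LiPS-57, 4.63, 4.77 and 4.65 for LiPS-47 and 4.73, 4.71 and 4.58 in LiPS-50. Its LiPS-50 arrays overlapped with those of LiPS-45 and LiPS-47. For LiPS-50 minus the other lines its log2 difference was 0.076 (SE 0.0561, adjusted p = 0.417 from limma). Usp37 stood at 8.20, 8.02 and 8.09 in LiPS-50, against 8.46, 8.36 and 8.47 for LiPS-45, 8.36, 8.27 and 8.26 for LiPS-57 and 8.45, 8.13 and 8.21 for LiPS-47. It was 1.17-fold lower in LiPS-50 (adjusted p = 0.0327 from limma), in the direction opposite to Usp26. This call was lost without LiPS-45 replicate 1 or 3, LiPS-57 replicate 1, or LiPS-50 replicate 2 or 3 (adjusted p = 0.0531 to 0.156).

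Of the 4 other X-linked USP genes measured, 2 rose in LiPS-50 against the other lines and 2 did not pass the test. With 299 of 738 other X-linked genes called higher, this count says nothing particular about these proteases. Usp11, a protease linked to DNA repair, stood at 6.69, 6.74 and 6.69 in LiPS-50, against 5.91, 6.05 and 5.98 for LiPS-45, 5.85, 5.96 and 6.07 for LiPS-57 and 5.98, 5.88 and 6.08 for LiPS-47. It was 1.66-fold higher in LiPS-50 (adjusted p = 5.36e-06 from limma), with the other lines overlapping. Usp9x, a protease with many substrates that is needed in early development, was 1.59-fold higher (adjusted p = 1.93e-05). Usp27x and Usp51, both reported to act on histone-linked ubiquitin, differed by 0.28 and -0.21 and did not pass (adjusted p = 0.0833 and 0.402). Among the 3 lines other than LiPS-50, 0 of these 4 genes were called by limma in any pair, and at most 1 had an unadjusted p under 0.05.

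In the family as a whole, 53 other USP genes were measured. For LiPS-50 minus the mean of the other lines, limma called 9 higher and 9 lower, with a median of 0.029 beside 0.0041 over all genes. Their 34.0% stands beside 21.2% of all probe sets. That base was dimmer: 9 of the 53 had means below its 40th percentile, at 5.21. Usp44, a mitotic checkpoint protease, had the smallest p among the lower ones and was 1.60-fold lower (adjusted p = 1.83e-05), and Usp28, a stabiliser of Myc, was 1.32-fold lower (adjusted p = 1.37e-04). In LiPS-45 minus LiPS-47, LiPS-57 minus LiPS-47 and LiPS-45 minus LiPS-57 limma called 0 of the 53. Of all probe sets 0.0622%, 0.159% and 0.266% were called, so 0 says nothing particular about this family. At an unadjusted p under 0.05 were 5, 3 and 6 of the 53, with no share of all probe sets to set beside them. Usp26 differed by -1.39, -0.42 and -0.98 in the same pairs. For competent minus other lines limma called 0 of the 53 and 0% of all probe sets. At an unadjusted p under 0.05 were 7 of the 53, beside 2226 of all 28939 probe sets. Members of the Usp17l group are near-identical copies whose probe sets may share signal, so their values are uncertain.

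**Figure D5:**
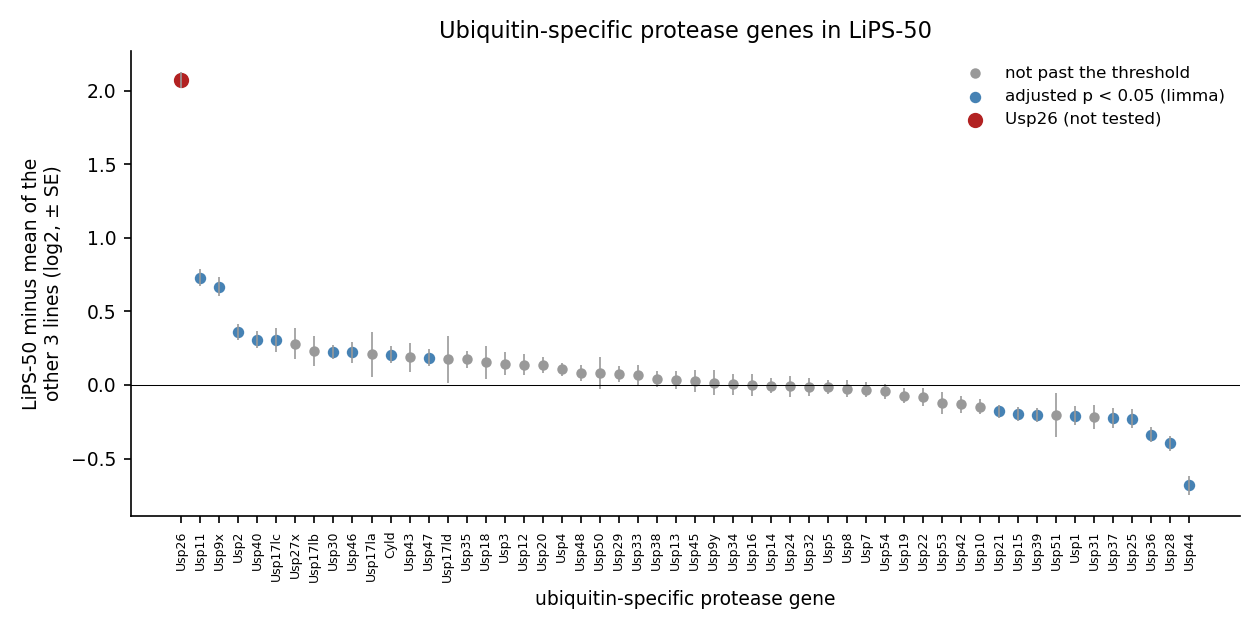
Log2 difference of LiPS-50 minus the mean of the other 3 lines (vertical axis, ± standard error) for Usp26 and the 53 other ubiquitin-specific protease genes measured (horizontal axis, sorted). Blue points passed limma at an adjusted p of 0.05, 9 on each side of 0; Usp26, at 2.07, was not tested.

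Genes tied to the reported work of the Usp26 protein were tested in the same manner. Of 5 listed substrate genes 2 were measured, and the other 3 were not analysed here. Mdm2 was 1.49-fold higher in LiPS-50 (adjusted p = 5.39e-05 from limma), at 10.87 ± 0.0383, against 10.37 ± 0.149 for LiPS-45, 10.29 ± 0.0491 for LiPS-57 and 10.24 ± 0.0884 for LiPS-47 (SD, n = 3 each). Smad7 differed by -0.12 (adjusted p = 0.209). Of 23 measured PRC1 genes, 7 were called higher and 4 lower in LiPS-50 (median 0.072 beside 0.0041 over all genes). That is 47.8% beside 21.2% of all probe sets. This base was dimmer than the list, of which 1 of 23 had a mean below the 40th percentile of probe sets. Without LiPS-50 replicate 1 the count of 11 fell to 7. The PRC1 subunit Phc1 was 1.42-fold lower (adjusted p = 1.76e-05), Kdm2b, which brings a PRC1 form to CpG islands, 1.29-fold lower (adjusted p = 8.25e-05) and Pcgf2 1.31-fold lower (adjusted p = 1.25e-04). Bcor, an X-linked partner of the same form, was 1.30-fold higher (adjusted p = 5.79e-04). In the 3 pairs without LiPS-50 limma called 0 of 23, beside 0.0622% to 0.266% of all probe sets. At an unadjusted p under 0.05 were 2 in LiPS-45 minus LiPS-47, 4 in LiPS-57 minus LiPS-47 and 1 in LiPS-45 minus LiPS-57. These counts have no share of all probe sets beside them. The arrays measure transcripts, so the level and activity of the Usp26 protein were not observed.

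Other genes of spermatogonia and germ cells were tested in the same comparison. Of 10 other measured X-linked spermatogonia genes, 9 of which had means below the 40th percentile of probe sets at 5.21, limma called 4 higher and 0 lower in LiPS-50, with a median of 0.18. This share is close to that of all other X-linked genes, 299 of 738 called higher with a median of 0.14, and so is no result about spermatogonia genes. Among probe sets at or above the 40th percentile the count was 1. The 4 called genes lie below it and were left out there, and the 1 counted was not called in the main fit. Fthl17f, a ferritin-like gene, was 1.78-fold higher (adjusted p = 0.00325), Tktl1, a transketolase-like gene, 1.43-fold (adjusted p = 6.45e-04), Taf7l, a germ cell transcription factor, 1.34-fold (adjusted p = 0.00664) and Tex11, a meiotic crossover gene, 1.21-fold (adjusted p = 0.0221). Tex11 lost its call with median centring (adjusted p = 0.0559), with quantile normalization (0.0621) and without any 1 of LiPS-50 replicates 1, 2 and 3 (0.0865, 0.0782 and 0.0530). Of 21 germ cell genes on any chromosome, 10 were called higher and 0 lower, against 10.5% and 10.6% of all probe sets, and without LiPS-50 replicate 3 the count fell to 6. The smallest p was that of Hormad1, a meiotic chromosome axis gene, at 2.63-fold (adjusted p = 1.57e-07). Tex19.1, which restrains retrotransposons, was 1.33-fold higher (adjusted p = 1.24e-04), Prdm14, a regulator of germ cell fate, 1.60-fold (adjusted p = 3.25e-04) and Mael, a gene of the piRNA pathway, 1.37-fold (adjusted p = 0.00263). In the 3 pairs without LiPS-50 limma called 0 in either list, beside 0.0622% to 0.266% of all probe sets. At an unadjusted p under 0.05 were 0 of the X-linked list in each pair and 5, 4 and 6 of the germ cell list. No share of all probe sets at that p is given, so these counts have no base.

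Markers of fibroblasts, the cells of origin and of feeder layers, were also higher in LiPS-50. Of 24 such genes limma called 23 higher and 0 lower there, beside 10.5% and 10.6% of all probe sets. Among the 23 were Pdgfra, a growth factor receptor of mesenchyme, 2.17-fold (adjusted p = 8.34e-06), and the collagen genes Col3a1 1.88-fold and Col1a2 1.69-fold. The median of the list ranged from 8.92 to 9.20 over the LiPS-50 arrays, against 8.38 to 8.63 for LiPS-45, 8.28 to 8.46 for LiPS-57 and 7.97 to 8.48 for LiPS-47. In the 3 pairs without LiPS-50 limma called 0 of 24, beside 0.0622% to 0.266% of all probe sets. At most 1 of the 24 had an unadjusted p under 0.05 in these pairs. The part of fibroblasts in the Usp26 level of LiPS-50 was not tested. The pluripotency markers that check the labelled cell type were bright in all lines, their median over 16 genes lying between 9.45 and 9.50 on the LiPS-50 arrays and between 9.62 and 9.72 on the others. Of the 16, 3 were called higher and 7 lower in LiPS-50, beside 21.2% of all probe sets called, and without LiPS-50 replicate 3 the count of 10 fell to 6. Examples were Tbx3 1.57-fold higher and Lin28a 1.39-fold lower (adjusted p = 3.31e-05 and 7.05e-06 from limma). The base over all probe sets was dimmer than both lists: 0 of these 16 and 1 of the 24 fibroblast genes lay below the 40th percentile.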

How the data were processed

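The authors deposited 1 linear intensity per probe set in each of the 12 arrays. GCOS 1.4 is named in the submitters' processing notes; how probes were summarised, corrected and normalized is not given in the sources used here. Over the 12 arrays the medians of the log2 values differed by at most 0.098, so the scale was kept and log2(intensity + 1) was taken, which understates changes of dim genes. Of 35556 probe sets, 6617 numbered below the annotated ones were taken as controls and left out. Genes with several probe sets are represented by the brightest, and symbols and X-linked gene order come from a RefSeq table of GRCm38.p6, which matched 19856 of 19939 genes. A single gene is annotated to 21789 tested probe sets, more than 1 to 1621, and none to 5529.

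Other genes were tested with limma 3.58.1 in R 4.3.3 (a fit of 4 line means over 12 arrays, eBayes, two-sided, Benjamini-Hochberg adjustment over 28939 probe sets, threshold 0.05). Competence was fitted with the line as a random block (consensus correlation 0.183) and called 0 probe sets, with 2226 at an unadjusted p under 0.05. The fit was tested on simulated data with independent normal noise, for LiPS-45 minus LiPS-47 only. It recovered 78% of changes of 1.5-fold and 100% of those of 2-fold, 4-fold and 8-fold. Of its 196 calls, 7 were false. The other comparisons were not simulated. Within lines the arrays correlated at 0.996 to 0.997. For pairs of lines, counts of list members at an unadjusted p under 0.05 have no share of all probe sets beside them.

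Usp26 and the gene lists were chosen with earlier results of these data known. Named genes are those nearest to Usp26 in pattern, brightness and position, its relatives, and up to 4 members of each list with the smallest p. The genes of widest span were picked after their values were seen.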

Additional observations from a re-analysis of the deposited data

How the results depend on the processing

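The Usp26 differences kept their direction under every setting tried. With log2(value + 16) they shrank to -1.04 (LiPS-45 minus LiPS-47), -2.35 (LiPS-45 minus LiPS-50), -0.34 (LiPS-57 minus LiPS-47), -1.64 (LiPS-57 minus LiPS-50), -0.71 (LiPS-45 minus LiPS-57), -1.31 (LiPS-47 minus LiPS-50), 1.77 (LiPS-50 minus the rest) and -1.34 (competent minus other). Relative to the X-linked median they became -2.63, -1.68 and -1.24 for LiPS-45, LiPS-57 and LiPS-47 minus LiPS-50, 1.85 for LiPS-50 minus the rest and -1.53 for competence. Leaving out 1 culture at a time, the competence difference ranged from -1.75 to -1.52, and the other 7 moved by less than the within-line SD. The counts of called probe sets moved most where few were called. LiPS-45 minus LiPS-47 gave 18, against 50 without dim probe sets, 49 with log2(value + 16), 3 with the pair alone and 6 to 44 without 1 culture (6 without LiPS-45 replicate 3, 44 without LiPS-47 replicate 3). LiPS-57 minus LiPS-47 gave 46, against 28 with the control block, 19 with the pair alone and 23 to 61 without 1 culture (23 without LiPS-57 replicate 1 or 3). LiPS-45 minus LiPS-57 gave 77, against 49 with the pair alone and 41 to 70 without 1 culture (41 without LiPS-57 replicate 1). LiPS-45 minus LiPS-50 gave 4771, and 3106 to 4802 without 1 culture, the lowest without LiPS-45 replicate 3. Competence gave 0, and 1789 from line means without the random block. For USP genes called in LiPS-50 against the rest, 18 became 12 to 19. In the same comparison, leaving out 1 culture gave 7 to 11 PRC1 genes in place of 11 (7 without LiPS-50 replicate 1), 6 to 11 germ cell genes in place of 10 and 6 to 10 pluripotency genes in place of 10 (6 each without LiPS-50 replicate 3). The cause of these changes was not tested.

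With the replicate number as a block, LiPS-57 minus LiPS-47 gave 25 called probe sets in place of 46, and the other counts stayed within 1.5 times; the Usp26 differences were unchanged (-0.42 for this pair). Same-numbered cultures of different lines did not deviate together (r from -0.17 to 0.12 over 18 pairs), so the numbers were not taken as pairs. Correlations over deviations from line means turned positive for Cnpy1 (0.305), Mbtd1 (0.511) and Rapgef5 (0.716).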
